A study of Mus musculus with 2 samples.

Results

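*Spry1*, *Spry2*, *Spry4*, *Spred1*, *Spred2*, *Dusp6*, *Etv1*, *Etv4* and *Etv5* are genes that cells switch on when fibroblast growth factor (FGF) receptors activate the ERK kinases. They were taken by symbol from the gene lists of single-cell RNA data on the mouse coronal suture, and all 9 were found among the 27491 genes that both lists share. An FGF bound to its receptor recruits adaptors that load RAS with GTP, and RAS starts the RAF, MEK and ERK chain of kinases. Sprouty and Spred proteins, the latter together with neurofibromin, hold back RAS and RAF, DUSP6 removes the activating phosphates from ERK, and the related ETS factors ETV1, ETV4 and ETV5 carry the signal to transcription. In the growing skull vault, FGF signals act on the proliferation and maturation of bone-forming cells at the edges of the suture.

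The cells came from wildtype C57/BL6 embryos at E15.5 and at E17.5, with 1 deposited library for each stage. For E15.5, 10 coronal sutures were pooled, digested with collagenase II and dispase, and cleared of dead cells with a kit. For E17.5, 16 sutures of 2 litters were digested with collagenase IV in 3 batches and sorted by FACS. Cell barcodes at E17.5 carry a suffix from 1 to 3, but which suffix belongs to which batch is not given in the sources used here. Stage cannot be told apart from enzyme, dead cell removal, embryos and counting software, all of which differ with it. With 1 library per stage no test was possible, and every interval below covers counting error only.

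The authors labelled 15 clusters, which they call osteogenic (OG1 to OG4), proliferating osteogenic (PO1 and PO2), ectocranial (EC1 to EC4), ligament-like (LIG) and meningeal (MG1 to MG4). Of unique molecular identifiers (UMIs), 5335 labelled cells held 48607817 at E15.5, where the median cell had 8510, and 6830 held 92585034 at E17.5, where it had 12302. UMIs of a gene were summed over the cells of a cluster and divided by all UMIs of those cells, times 1000000, which gives the CPM, here with an exact Poisson 95% interval. A cluster was called enriched for a gene where its CPM was 2-fold or more above that of the remaining labelled cells. The clusters were defined on the same cells, so their levels describe them and test nothing. The libraries shared 42 barcode sequences among their labelled cells. Cells with a given label differed between the libraries in more than the 9 genes. In OG2, *Sp7*, a factor that osteoblasts require, was 4.14 CPM at E15.5 and 172 CPM at E17.5, and the 5 osteogenic markers *Runx2*, *Sp7*, *Dlx5*, *Ifitm5* and *Dmp1* together were 47.8 and 505 CPM. This was not particular to OG2. *Sp7* was higher at E17.5 in every label, with 2.93 and 109.5 CPM in EC1. The 5 markers were higher in every label but OG4, with 30.2 and 332 CPM in EC1 and 4299 and 3872 CPM in OG4. *Crabp1*, a retinoic acid binding protein, was 1742 CPM in OG2 at E15.5 and 88.5 CPM at E17.5, and *Lef1*, a factor of Wnt signalling, was 73.4 and 11.6 CPM. The E15.5 cells labelled OG2, PO1 and PO2 thus held little of the osteogenic markers, with 47.8, 41.1 and 49.6 CPM against 4299 CPM in OG4, and OG2 is used below as the name of a label. The 4 ectocranial markers *Ly6a*, *Dpt*, *Pi16* and *C1qtnf3* summed to 1629 CPM in EC1 and 1439 CPM in EC4 at E15.5, with 1318 and 1710 CPM at E17.5. EC4 also held 422 and 595 CPM of 5 ligament markers, beside 756 and 1464 CPM in LIG. Immune and endothelial markers, which could come from other cells of the tissue, were 29.7 and 24.2 CPM over the labelled cells at E15.5, then 58.6 and 24.2 CPM. Chondrocyte markers were 354 CPM over the labelled cells at E15.5 and 120 CPM at E17.5, and 402 and 95.8 CPM in OG2. Keratinocyte markers (*Krt5*, *Krt14* and *Krt15*) were 396 CPM in OG1, 29 CPM in OG2, 4.9 CPM in PO1 and 4.13 CPM in PO2 at E15.5, whereas at E17.5 OG1 had 0.502 CPM and all 3 were at 0 in OG2. The part of these transcripts in the levels of the 9 genes was not tested.

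The 250 bases upstream of a start site are shown for *Dusp6*, *Etv5* and *Spry2*, because the first 2 were highest in OG2 at E15.5 whereas *Spry2* alone kept 1 cluster in both libraries. They come from the RefSeq promoter table for GRCm38.p6, in which 7 of the 9 genes had an entry. Capitals mark the letters GGAA, the core that ETS factors bind, and TGAATG, the first 6 letters of 2 octamers of the ERK-sensitive repressor CIC (TGAATGAA and TGAATGGA), on either strand. The *Dusp6* stretch is chr10:99262981-99263230, plus strand, just before the annotated gene. That of *Etv5* is chr16:22438369-22438618, minus strand, upstream of an inner start and within an intron of the longer gene model. That of *Spry2* is chr14:105896820-105897069, minus strand.
Dusp6: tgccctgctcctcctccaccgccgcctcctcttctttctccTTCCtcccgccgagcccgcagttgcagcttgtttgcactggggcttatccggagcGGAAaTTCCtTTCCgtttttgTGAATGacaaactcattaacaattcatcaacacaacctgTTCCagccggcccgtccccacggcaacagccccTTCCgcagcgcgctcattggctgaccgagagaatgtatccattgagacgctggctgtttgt
Etv5: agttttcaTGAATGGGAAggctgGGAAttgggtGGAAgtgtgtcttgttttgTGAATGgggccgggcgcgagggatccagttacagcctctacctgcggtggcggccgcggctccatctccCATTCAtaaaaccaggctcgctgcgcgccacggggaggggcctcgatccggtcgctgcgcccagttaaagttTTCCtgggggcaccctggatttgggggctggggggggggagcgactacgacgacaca
Spry2: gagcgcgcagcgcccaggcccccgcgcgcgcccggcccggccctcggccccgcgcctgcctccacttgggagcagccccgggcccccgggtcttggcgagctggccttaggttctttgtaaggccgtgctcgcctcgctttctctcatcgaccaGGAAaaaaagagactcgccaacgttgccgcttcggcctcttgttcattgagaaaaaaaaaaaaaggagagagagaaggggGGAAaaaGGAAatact

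GGAA occurred 6 times upstream of *Dusp6*, 4 times upstream of the inner start of *Etv5* and 3 times upstream of *Spry2*. Among the genes not shown, *Spred2*, which reached 2-fold in no cluster, had the most with 7. *Spred1* had 4, *Spry1* 1, and the entries of *Etv1* 2 and 1, so the number did not follow the pattern over the clusters. The other *Etv5* entry, at the outer start (chr16:22439571-22439820), held neither GGAA nor TGAATG. It is common, since 93.4% of the 32851 stretches of the same length in the table hold it, and 8.69% hold at least 6. TGAATG occurred 3 times upstream of the inner start of *Etv5*, where 1 match directly precedes a GGAA, and once upstream of *Dusp6*, while 10.9% of all stretches hold at least 1 and 0.131% at least 3. This shorter form was searched after the full octamers, which 2.07% of all stretches hold, had given 0 matches in any of the 9 entries for the 7 genes. These are matches of letters and not known binding sites.

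At E15.5 most of the 9 genes were highest in OG2 or a neighbouring osteogenic or proliferating label, and at E17.5 this was no longer so. In OG2 at E15.5, 7 of the 9 genes were at least 2-fold above the other labelled cells, all but *Spry2* and *Spred2*, where 4.36% of the 12150 genes with at least 50 UMIs in each library were. In PO1 at E15.5 the count was 6 of 9 against 9.08% of genes. In OG2 at E17.5 it was 0 of 9 against 0.593% of genes. The share of all genes called in OG2 was thus itself lower in the later library. The median ratio of OG2 to the other labelled cells over the 9 genes was 3.44 at E15.5, beside 0.999 over all genes, and 0.933 at E17.5, beside 0.936. Leaving OG1, PO1 and PO2 out of the other cells, an alternative added after seeing the data, gave the same count of 7 in OG2 at E15.5.

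**Figure D1:**
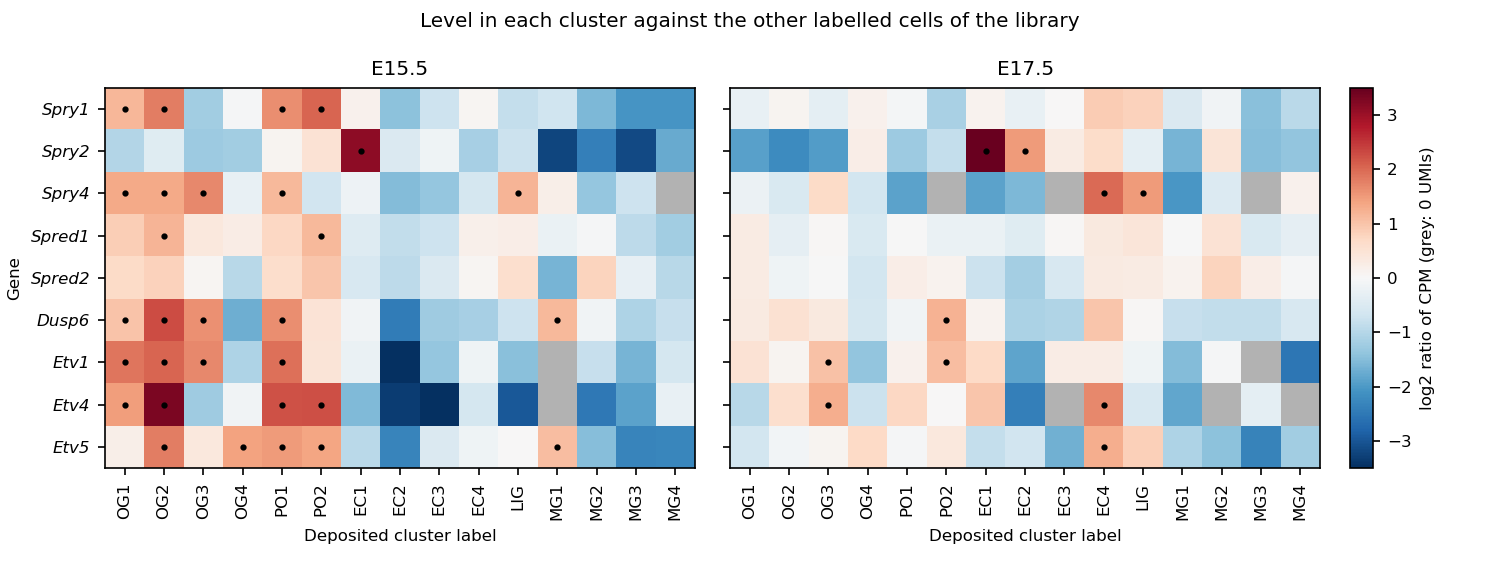
Ratio of the CPM of each gene in a cluster to its CPM in all other labelled cells of the same library, as log2, with red above and blue below and grey for 0 UMIs. Dots mark ratios of at least 2, of which OG2 holds 7 at E15.5 and 0 at E17.5, while *Spry2* in EC1 is marked in both.

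Among the Sprouty genes, which encode inhibitors of the step from receptor to RAF, *Spry1* and *Spry2* had different maxima at E15.5. *Spry1* (ENSMUSG00000037211, GRCm38 chromosome 3 from 37639947 to 37644598) was 49.6 CPM (31.8 to 73.8) in PO2, 35.6 CPM (30.1 to 41.9) in OG2, 35.3 CPM in PO1 and 26.5 CPM in OG1. The intervals of these 4 clusters overlapped, and each was at least 2-fold above the other cells. In the remaining 11 clusters *Spry1* ranged from 3.01 CPM in MG4 to 13.7 CPM in EC1. At E17.5 its range was narrow, from 1.47 CPM in MG3 to 7.12 CPM in EC4, and 10 of the 14 other clusters overlapped the EC4 interval. In OG2 it was 4.29 CPM at E17.5, which is 0.12 times the E15.5 value (0.0804 to 0.176). No cluster reached 2-fold for *Spry1* at E17.5.

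*Spry2* (ENSMUSG00000022114, chromosome 14 from 105891947 to 105896819) was the only one of the 9 genes with the same highest cluster in both libraries, where 32.9% of all genes tested had the same one. In EC1 at E15.5 its level was 207 CPM (191 to 224) from 636 UMIs. In the same label at E17.5 it was 46.7 CPM (38.6 to 55.9) from 118 UMIs, a stage ratio of 0.226 (0.184 to 0.275). No other cluster overlapped these intervals in either library, the next being PO2 with 49.6 CPM at E15.5 and EC2 with 13.1 CPM at E17.5. The ratio of EC1 to the other labelled cells was 8.77 in the earlier library and 10.97 in the later, and of all genes 0.683% were called in EC1 in both libraries. EC1 held 50.8, 23.3 and 53.2 CPM in barcode suffixes 1, 2 and 3, so that suffix 2, with 11 UMIs, was the lowest, and the ratio to the other cells was 7.34, 7.34 and 12.4. After thinning each cell to 3000 UMIs, which left out 28 of the 330 EC1 cells of the earlier library and 0 of the 295 of the later, a *Spry2* UMI was held by 36.8% (31.3 to 42.5) and 9.49% (6.4 to 13.4) of them. Without thinning the shares were 68.8% and 21.7%, at median depths of 9143 and 6767 UMIs. Among unlabelled cells with immune markers the thinned share was 2.74% at E15.5 and 1.13% at E17.5. Its lowest cluster at E17.5 was OG2, with 10 UMIs and 1.26 CPM (0.605 to 2.32), where it had 26.8 CPM (22 to 32.3) at E15.5.

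*Spry4* (ENSMUSG00000024427) was sparse, with 160 UMIs over the earlier library's labelled cells and 131 over the later's. It was 10.1 CPM (5.35 to 17.2) in OG3 at E15.5, and 9 of the 14 other clusters overlapped this interval. LIG was enriched in both libraries, with 6.77 CPM (2.27 times the other cells) and 3.37 CPM (2.81 times). At E17.5 EC4 was highest, with 4.9 CPM (3.07 to 7.41), a ratio of 3.96, and only LIG and MG4 overlapped it. Cells with immune markers, a comparison chosen after their low level was seen, had 0.893 CPM (0.385 to 1.76) and 1.07 CPM (0.534 to 1.91). By their intervals OG1, OG2, OG3, PO1 and LIG were above these cells at E15.5, and EC4 and LIG at E17.5.

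*Spred1* and *Spred2*, whose products bind neurofibromin and inhibit RAS, varied less between clusters than the other genes. *Spred1* (ENSMUSG00000027351, chromosome 2 from 117121374 to 117182279) ranged from 13.5 CPM in MG4 to 68.2 CPM (46.9 to 95.7) in PO2 at E15.5, with 64.6 CPM (57 to 72.9) in OG2, the only 2 clusters past 2-fold. At E17.5 it ranged from 17.6 CPM in MG3 to 35.1 CPM in MG2, and OG2 had 20.6 CPM. *Spred2* (ENSMUSG00000045671, chromosome 11 from 19924375 to 20024026) reached 2-fold in no cluster, with a highest ratio of 1.96 in PO2 at E15.5 and 1.70 in MG2 at E17.5. MG2 had 19.2 CPM of *Spred2* at E15.5 and 19.4 CPM at E17.5.

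*Dusp6* (ENSMUSG00000019960, chromosome 10 from 99263231 to 99267489), the phosphatase of ERK, was highest in OG2 at E15.5 with 38.5 CPM (32.7 to 45), a ratio of 4.86. OG3 with 30.1 CPM, PO1 with 29.9 CPM and MG1, which has 6 UMIs in 28 cells, overlapped it. OG4, the label with the most *Sp7*, had 3.32 CPM (1.22 to 7.22), so that the osteogenic labels held both the highest and the second lowest level of *Dusp6*. At E17.5 PO2 was highest with 14.2 CPM (9 to 21.3), followed by EC4 with 11.6 CPM and OG2 with 8.57 CPM. *Dusp6* in EC4 was higher at E17.5 than at E15.5, at 11.6 against 4.88 CPM, a ratio of 2.37 (1.39 to 4.19), while in OG2 the ratio was 0.223 (0.165 to 0.298).

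**Figure D2:**
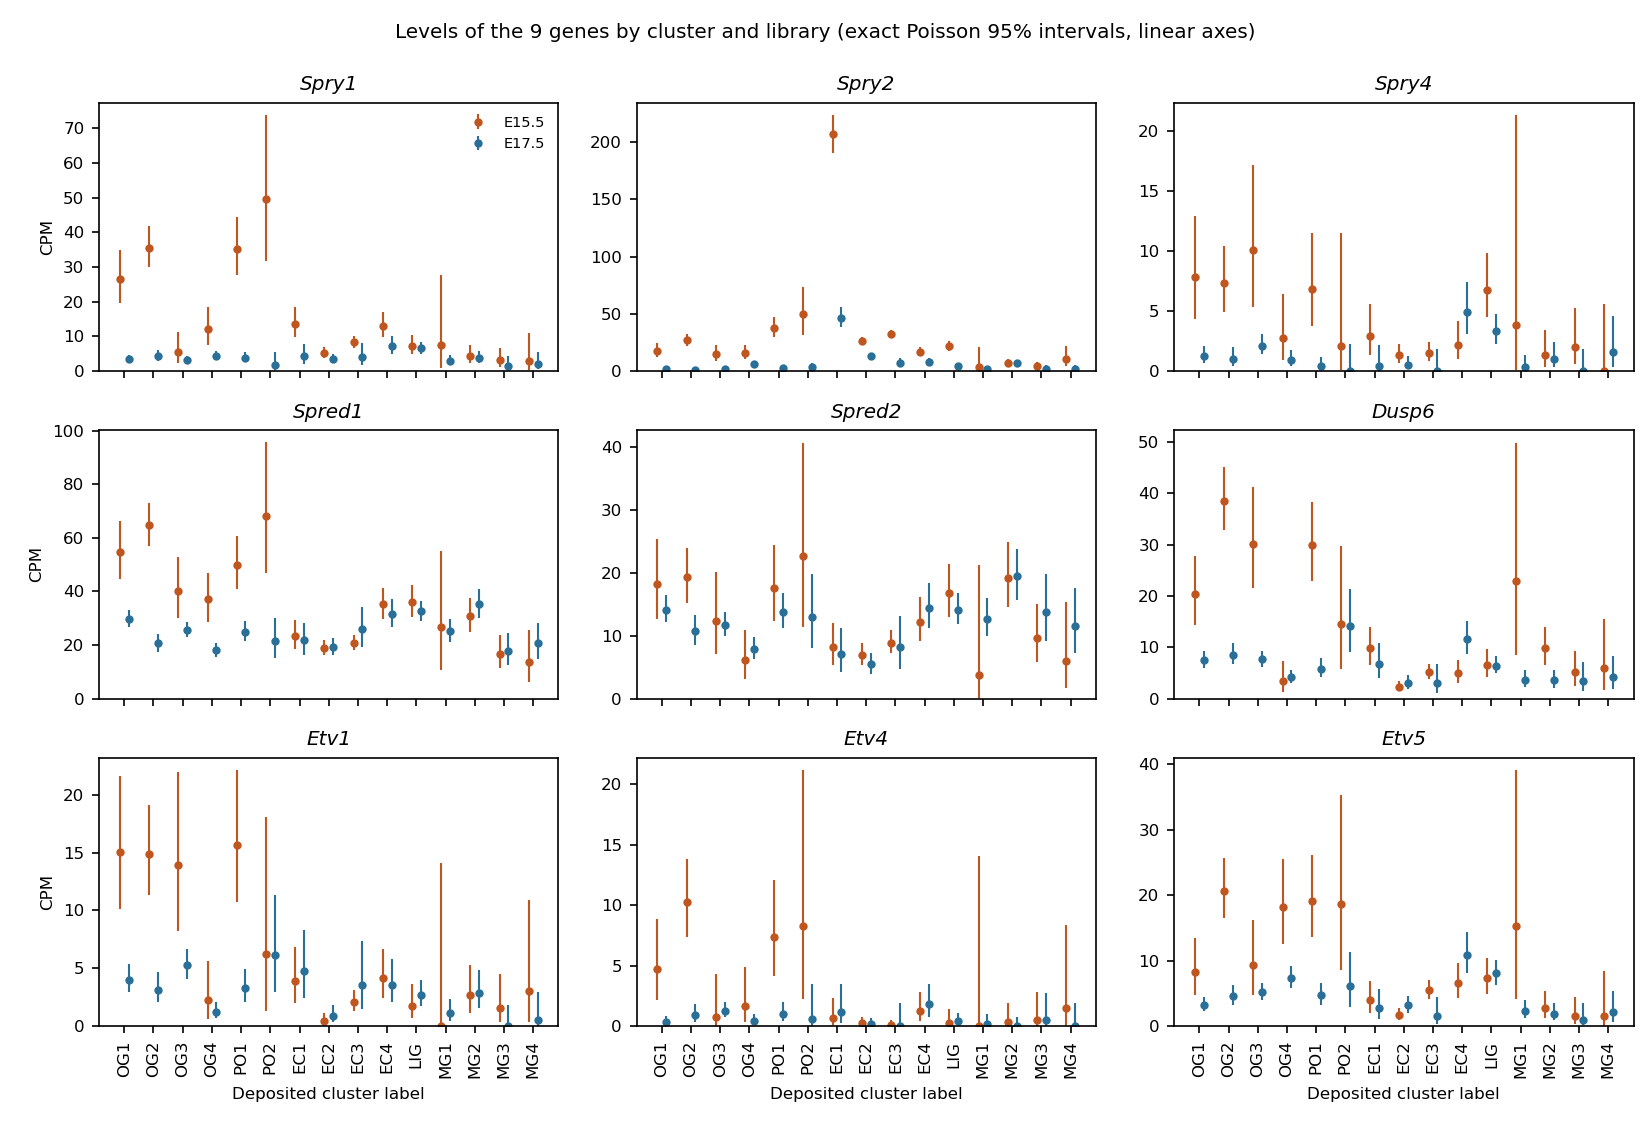
CPM of each gene in the 15 clusters at E15.5 (orange) and E17.5 (blue), with exact Poisson 95% intervals and axes from 0. OG1, OG2, PO1 and PO2 stand high at E15.5 for *Spry1* and *Spred1*, EC1 stands alone for *Spry2*, and most blue points lie below the orange ones.

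The 3 ETS genes shared a high level in OG2 and PO1 at E15.5. *Etv1* (ENSMUSG00000004151, chromosome 12 from 38779380 to 38870484) was 15.7 CPM (10.7 to 22.1) in PO1, 15.1 CPM in OG1, 14.9 CPM in OG2 and 13.9 CPM in OG3, and 0.434 CPM (0.118 to 1.11) in EC2. OG3 was enriched for *Etv1* in both libraries, with 5.28 CPM (4.1 to 6.69) at E17.5. PO2, with 10 UMIs, was higher at that stage with 6.175 CPM, 2.11 times the other cells. The intervals of 9 other clusters, OG3 among them, overlapped that of PO2. *Etv5* (ENSMUSG00000013089, chromosome 16 from 22381309 to 22439719) was 20.7 CPM (16.6 to 25.6) in OG2 at E15.5, with 19.1 CPM in PO1 and 18.2 CPM in OG4. Unlike *Dusp6*, it was thus high in OG4, with a ratio of 2.67 at E15.5 and 1.62 at E17.5. At E17.5 *Etv5* was highest in EC4, with 10.9 CPM (8.07 to 14.4), 2.41 times the other cells.

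*Etv4* (ENSMUSG00000017724, chromosome 11 from 101769742 to 101785371) had the fewest UMIs, 88 at E15.5 and 57 at E17.5. Of the 88, 42 were in OG2, at 10.2 CPM (7.38 to 13.8), which is 9.9 times the other labelled cells. PO2 with 8.26, PO1 with 7.34 and OG1 with 4.68 CPM overlapped OG2, as did MG1 and MG4 with 0 UMIs and 1 UMI, whereas EC2 and EC3, with 2 UMIs and 1 UMI, had 0.217 and 0.0932 CPM. Cells with immune markers had 0.558 CPM (0.181 to 1.3) and 0.389 CPM (0.106 to 0.996) in the earlier and the later library. By their intervals 4 clusters (OG1, OG2, PO1 and PO2) were above these cells at E15.5. At E17.5 0 of 15 were. Against the other labelled cells, EC4 with 8 UMIs was 3.2 times (1.31 to 6.82) and OG3 with 16 UMIs 2.42 times (1.27 to 4.4) at that stage. The immune cells are no baseline for every gene, since for *Spred1* and *Etv5* 0 clusters were above them in either library. At E15.5 and E17.5 the clusters above them numbered 4 and 0 for *Spry1*, 7 and 3 for *Spry2*, 0 and 3 for *Spred2*, 1 and 0 for *Dusp6* and 3 and 0 for *Etv1*.

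After thinning to 3000 UMIs, 9.09% of 484 OG2 cells (6.68 to 12) held a *Dusp6* UMI at E15.5 and 3.26% of 522 (1.91 to 5.16) at E17.5. For *Spry1* the shares were 7.85% (5.62 to 10.6) and 1.15% (0.423 to 2.48), and for *Etv4* 2.89% (1.59 to 4.81) and 0.575% (0.119 to 1.67). For *Spry2* they were 7.44% (5.26 to 10.1) and 0.766% (0.209 to 1.95). Without thinning they were 25.8% and 9.96% for *Dusp6*, 23% and 6.32% for *Spry1*, 6.97% and 1.34% for *Etv4*, and 16.6% and 1.92% for *Spry2*. The unthinned shares were lower at E17.5 although OG2 cells were deeper there, with a median of 15134 UMIs against 7723. Cells with immune markers had a thinned share of 2.39% and 2.26% for *Spry1*, and of 7.04% (5.4 to 8.99) and 22.9% for *Dusp6*. The *Dusp6* share in OG2 thus overlapped theirs at E15.5 and was lower at E17.5, when *Spry1* in OG2 was not above them either. For *Etv4* the thinned share of the immune cells was 0.358% at E15.5 and 0 of 795 cells at E17.5, for which the upper bound is 0.463%.

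At E17.5 more of the 9 genes reached 2-fold in EC4 than in any other label, the next being OG3 and PO2 with 2 each. There 3 of the 9 genes (*Spry4*, *Etv4* and *Etv5*) reached 2-fold in EC4, where 4.2% of genes did, and all 9 lay above the other labelled cells, from 1.21 times for *Etv1* to 3.96 times for *Spry4*. At E15.5 3 of 9 lay above the other cells in EC4, and the highest ratio was 1.14, for *Spred1*. The median ratio over the 9 genes in EC4 was 0.9005 at E15.5, beside 0.978 over all genes, and 1.84 at E17.5, beside 0.97. The share of all genes above the other cells in EC4 was not counted. The 9 genes summed in EC4 were 96 CPM (86.7 to 106) in the earlier and 94.2 CPM (85.4 to 104) in the later library, a ratio of 0.981 (0.853 to 1.13). The 3 barcode suffixes were not alike, since the summed level of the 7 genes other than *Spred1* and *Spred2* in EC4 was 67.5, 46.9 and 32.7 CPM, and in suffix 2 alone 6 of the 9 genes reached 2-fold. No share of all genes was counted within a suffix. *Fgf9*, a ligand of FGF receptors, was 55.7 CPM in EC4 at E15.5 and 32.9 CPM at E17.5, 18.5 and 9.18 times the other labelled cells, and *Fgf18* was 37.1 and 44.3 CPM.

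Counted over both libraries, 3 of the 9 genes were enriched in at least 1 cluster at both stages, *Spry2* in EC1, *Spry4* in LIG and *Etv1* in OG3, beside 20.7% of all genes. No cluster was enriched for 2 of them at both stages. The pattern of a gene over the 15 clusters was described by Pearson's r of log2(CPM + 1), without a test because the clusters share a library and differ in depth. Between the libraries, r was 0.171 for *Spry1*, 0.212 for *Spry4*, 0.264 for *Spred1*, 0.358 for *Etv4*, 0.425 for *Dusp6*, 0.532 for *Spred2*, 0.573 for *Etv5*, 0.596 for *Spry2* and 0.62 for *Etv1*. The patterns of the 9 genes were more alike to each other at E15.5, when r was above 0.5 in 23 of the 36 pairs, than at E17.5, when 11 pairs were. Pairs of other genes were not counted beside them. Most of the 9 genes were also lower at E17.5, when the median over the clusters was 0.434 CPM for *Etv4* and 0.953 CPM for *Spry4*, below the 1 added before the log. The part of these low levels in the lower r was not tested. *Spry2* was the least like the rest, with 1 of 8 pairs above 0.5 in the earlier and 0 of 8 in the later library. The pair of *Spry1* and *Etv4* went from 0.839 to 0.358, whereas *Dusp6* and *Etv4* had 0.553 and 0.729.

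Among the genes with at least 200 UMIs in each library, the 3 most alike in both were searched for each gene, by the lower of the 2 correlations over the 15 clusters. For *Etv4* they were *Lef1* (0.725), *Bok* (0.72) and *Pop1* (0.698), and for *Etv1* *Bcl11b* (0.818), *Csrp1* (0.785) and *Tnfrsf12a* (0.785). For *Spry4* the first was *Etv5* (0.634), followed by *Ralgps2* (0.602) and *Gorab* (0.588), which makes *Spry4* and *Etv5* the only pair within the 9. *Etv5* itself had *Arf1* (0.759), *Myo5a* (0.74) and *Gadd45g* (0.729). For *Spry1* they were *Ddah1* (0.742), *Ch25h* (0.718) and *Nol10* (0.683), and for *Spry2* *Ttyh2* (0.782), *Hoxd8* (0.759) and *Kdm6b* (0.752). *Dusp6* had *Ddx46* (0.77), *Gmpr2* (0.769) and *Pes1* (0.766). *Spred1* had *Tns3* (0.8), *Pros1* (0.73) and *Lmcd1* (0.718), and *Spred2* had *Rbm26* (0.78), *Nol3* (0.771) and *Zfp280d* (0.738). These were the best of 9862 or 9863 candidates for each gene.

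Over all labelled cells, 7 of the 9 genes were at least 1.5-fold lower at E17.5 than at E15.5, where 19.2% of genes were, and 0 of 9 were at least 1.5-fold higher, where 12.9% were. *Spry2* went from 35.2 to 5.41 CPM, a ratio of 0.154, and its 3 suffixes at E17.5 had 9.69, 3.43 and 5.6 CPM, so that they differed among themselves. *Spry1* went from 12.5 to 4.03 CPM, with ratios of 0.278, 0.354 and 0.312 for suffixes 1, 2 and 3. *Etv4* went from 1.81 to 0.616 CPM and *Spry4* from 3.29 to 1.42 CPM. *Dusp6* went from 10.5 to 6.2, *Etv1* from 4.57 to 2.98 and *Etv5* from 7.26 to 4.84 CPM, ratios of 0.59, 0.653 and 0.666. *Spred1* with 31.3 and 25.3 CPM and *Spred2* with 11.7 and 11.8 CPM stayed within 1.5-fold. Every suffix gave a ratio below 1 for the 8 genes other than *Spred2*. *Etv5* lay at the 1.5-fold limit. The count was 6 in place of 7 after thinning each cell to 3000 UMIs and in suffix 2 or suffix 3 alone. It was also 6 with only cells within the stated filters and without the highest doublet scores. In suffix 1 alone 4 of the 9 genes passed that limit in place of 7, and with a limit of 2-fold 4 did. With the mean UMIs per cell in place of CPM, 4 were at least 1.5-fold lower (*Spry1*, *Spry2*, *Spry4* and *Etv4*), *Dusp6*, *Etv1* and *Etv5* had ratios of 0.877, 0.971 and 0.991, *Spred1* had 1.2, and *Spred2* was 1.5-fold higher.

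**Figure D3:**
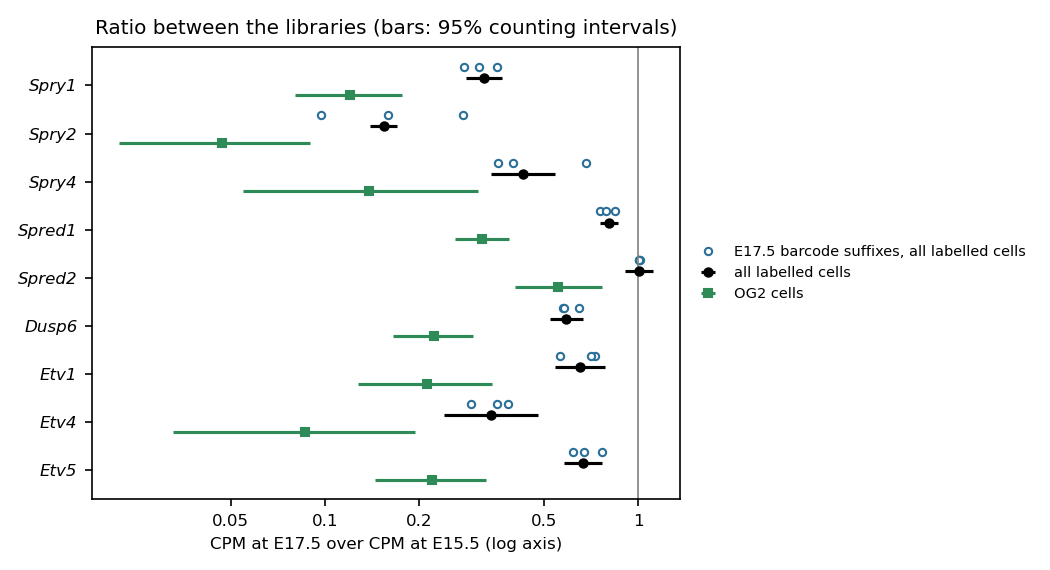
Ratio of CPM at E17.5 to CPM at E15.5 on a log axis, for all labelled cells (black) and OG2 cells (green) with 95% counting intervals, and for each E17.5 barcode suffix (open circles). In OG2 all 9 intervals lie below 1, and over all labelled cells *Spred2* lies at 1.01.

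The cells of a library were distributed differently over the clusters, so the ratio was also taken within clusters. In OG2, 8 of the 9 genes were at least 2-fold lower at E17.5, all but *Spred2*, beside 15.7% of the genes with at least 10 UMIs there at E15.5. The ratio in OG2 was 0.047 (0.0219 to 0.0898) for *Spry2*, 0.0862 (0.0327 to 0.194) for *Etv4*, 0.138 (0.0547 to 0.308) for *Spry4*, 0.212 for *Etv1* and 0.219 for *Etv5*, and 0.318 for *Spred1*. The median over the 9 genes was 0.212 in OG2, 0.193 in PO1, 0.552 in OG3, 0.71 in EC1 and 1.19 in EC4, where the median over all genes was 0.967, 0.975, 0.971, 0.988 and 1. The cells labelled OG2 also differed between the libraries in *Sp7*, *Crabp1* and *Lef1*, as given above. Those labelled PO1 had 1.96 and 180 CPM of *Sp7*, 1297 and 24.2 CPM of *Crabp1* and 56.8 and 10.5 CPM of *Lef1*. *Sp7* was higher at E17.5 in the other labels too. The part of these differences in the ratios was not tested.

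The 7 genes other than *Spred1* and *Spred2* were summed after their values were seen. They are the genes that were at least 1.5-fold lower over all labelled cells, so a lower sum there follows from the choice. These 7 had 154 CPM (142 to 167) in OG2 in the earlier library. In the later they had 23.7 CPM (20.4 to 27.4), and 23.3, 24.3 and 23.2 CPM in suffixes 1 to 3. In the osteogenic and proliferating labels together they were 122 CPM at E15.5 and 23.9 CPM at E17.5, in the ectocranial labels and LIG 67 and 34.7 CPM, and in the meningeal labels 25.6 and 14.5 CPM. *Spry2* made up much of the ectocranial sum, with 44.4 and 11.9 CPM. Without it, a sum added after this was seen, the other 6 genes had 22.6 CPM (20.9 to 24.3) and 22.8 CPM (21 to 24.7) in the ectocranial labels and LIG, a ratio of 1.01 (0.902 to 1.13), and 96.5 and 21.3 CPM in the osteogenic labels, a ratio of 0.22 (0.203 to 0.24). At E15.5 the order of the 7 genes' sum thus ran from the osteogenic over the ectocranial to the meningeal labels, with intervals that did not overlap. Without *Spry2* the meningeal labels had 19.3 CPM (15.9 to 23.2) at that stage, an interval that overlapped the ectocranial one. At E17.5 the 7 genes had 34.7 CPM (32.5 to 37) in the ectocranial labels with LIG and 23.9 CPM (22.6 to 25.3) in the osteogenic labels. Without *Spry2* the intervals overlapped, at 22.8 CPM (21 to 24.7) and 21.3 CPM (20.1 to 22.6). All 9 genes summed gave less marked ratios of the later to the earlier library. These were 0.231 (0.206 to 0.259) in OG2 and 0.312 (0.295 to 0.329) in the osteogenic labels. In the ectocranial labels with LIG the ratio was 0.712 (0.672 to 0.754), and in the meningeal labels 0.89 (0.786 to 1.009).

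**Figure D4:**
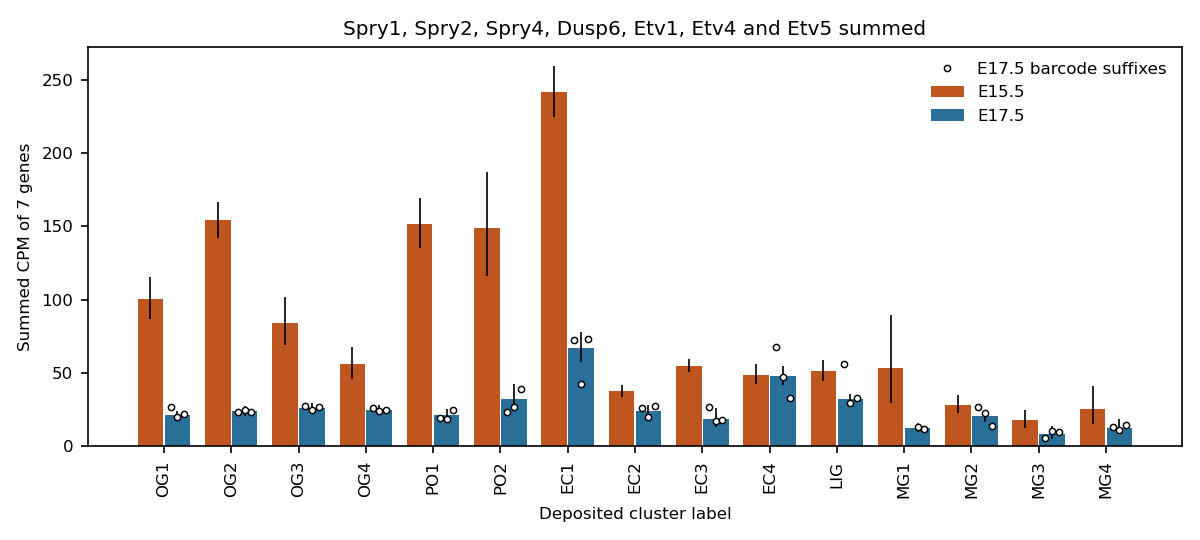
Summed CPM of the 7 genes in each cluster at E15.5 (orange bars) and E17.5 (blue bars) with exact Poisson 95% intervals, and in each E17.5 barcode suffix (open circles, none for suffix 1 in MG1, which has no cells). The 7 are those at least 1.5-fold lower over all labelled cells at E17.5. OG2 goes from 154 to 23.7 CPM and EC1 from 242 to 66.8 CPM, while EC4 has 48.6 and 48.1 CPM.

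Genes that respond to cell dissociation moved with the stage difference. Of 18 such genes, among them *Fos*, *Jun* and *Atf3*, 14 were at least 1.5-fold lower at E17.5, and their sum went from 7058 to 4504 CPM, with 5648, 4327 and 4222 CPM in suffixes 1 to 3. The sum went from 8218 to 4523 CPM in OG2 and from 6183 to 3428 CPM in EC4, where the 7 genes had 48.6 and 48.1 CPM. Within OG2 at E15.5, the 244 cells with the lower share of these genes had 163 CPM of the 7 genes and the 244 with the higher share 146 CPM, a ratio of 0.892 (0.761 to 1.05). The ratio was 1.49 (1.28 to 1.74) in EC1 at that stage, 1.51 (1.11 to 2.07) in OG1, 1.3 (1.03 to 1.65) in PO1 and 1.38 (1.03 to 1.86) in EC4. In these labels the cells with the higher share also held more of the 7 genes, while LIG had 1.22 (0.915 to 1.63). At E17.5 the ratio was 0.797 (0.592 to 1.07) in OG2, 0.638 (0.465 to 0.873) in EC1 and 0.925 (0.666 to 1.28) in PO1. It was 1.18 (0.916 to 1.53) in OG1, 1.29 (0.975 to 1.72) in EC4 and 0.896 (0.708 to 1.13) in LIG. *Fos*, *Fosb*, *Egr1*, *Ier2* and *Ier3* of the dissociation list are also genes of the ERK response, so this split cannot tell dissociation from ERK activity. The part of dissociation in the difference between the libraries was not tested. The sum of 15 proliferation genes was 1116 CPM in OG2 at E15.5 and 1432 CPM at E17.5. Red blood cell transcripts, a sign of free RNA, were 10844 CPM over the labelled cells at E15.5 and 545 CPM at E17.5.

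The other genes of the pathway were counted from lists that were chosen with earlier results of these data known. Of all genes 19.2% were at least 1.5-fold lower and 12.9% higher. Of 9 other feedback inhibitors with at least 50 UMIs in each library, 5 were at least 1.5-fold lower at E17.5, and *Dusp7* and *Dusp9* were at least 1.5-fold higher. The 5 were *Il17rd*, which holds FGF receptor signalling back and went from 9.13 to 2.52 CPM, *Dusp5*, a nuclear phosphatase of ERK, from 12.2 to 2.94 CPM, *Errfi1* from 46.3 to 20.1 CPM, *Lrig1* from 9.67 to 3.8 CPM and *Spred3* from 3.64 to 1.13 CPM. In EC4 at E17.5 *Il17rd*, *Lrig1* and *Spred3* reached 2-fold, and in OG2 at E15.5 only *Lrig1* of these 9 did. Of 10 immediate early genes of the ERK response, 7 were at least 1.5-fold lower at E17.5 and 0 higher, with a median ratio of 0.512, but *Fos*, *Fosb*, *Egr1*, *Ier2* and *Ier3* of this list are also among the dissociation genes. In OG2 at E15.5 0 of these 10 reached 2-fold.

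Of 21 genes that act between receptor and ERK, 4 were at least 1.5-fold lower and 1, *Hras*, higher, with a median ratio of 0.835. Not all of the 21 relay the signal, since they include *Nf1*, the gene of neurofibromin. Of 11 other ETS genes 0 were lower and 3 higher (*Elk3*, *Erg* and *Fli1*), beside 3 of 3 lower for *Etv1*, *Etv4* and *Etv5*. *Fgfr1* was 269 CPM in OG2 at E15.5, 2.02 times the other labelled cells, and 132 CPM at E17.5, a ratio of 0.491 (0.45 to 0.534). *Fgfr2* was 36.1 CPM in OG2 at E15.5 and 117 CPM at E17.5, a ratio of 3.25 (2.73 to 3.89), the opposite direction to the feedback genes in that label. This was not particular to OG2, since over all labelled cells *Fgfr2* went from 19.7 to 78.4 CPM, a ratio of 3.98 (3.72 to 4.27). Against the other labelled cells OG2 was 1.985 times at E15.5 and 1.566 times at E17.5. *Fgfr3* was highest in OG3 in both libraries, with 25.5 and 29.4 CPM, and had 7.56 and 10.2 CPM in OG2. Of 5 ligands with enough UMIs, 3 (*Fgf7*, *Fgf10* and *Fgf18*) were at least 1.5-fold lower at E17.5 and *Fgf2* was higher.

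**Figure D5:**
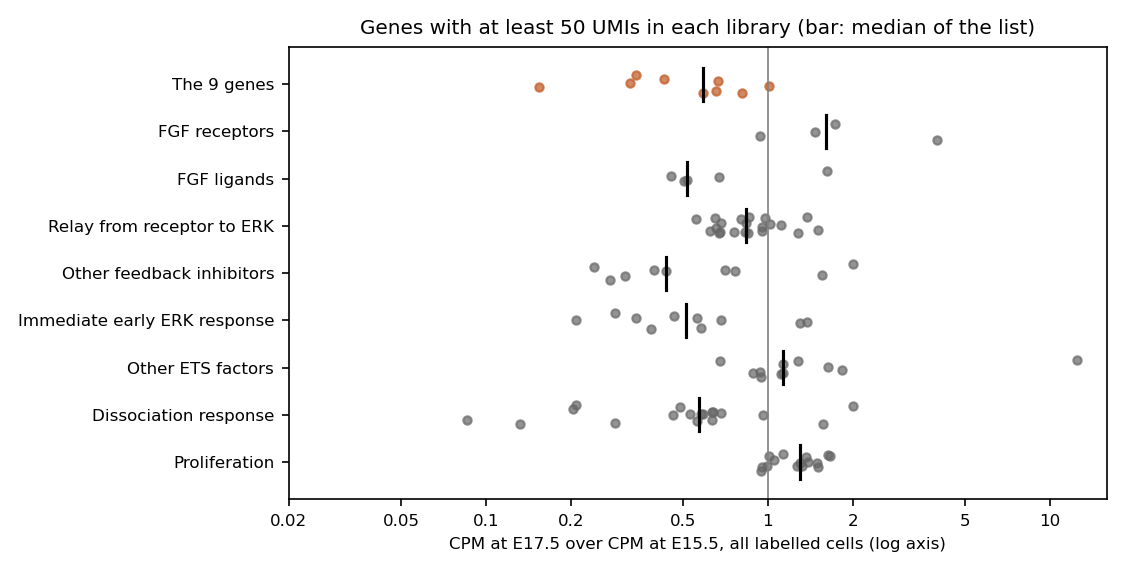
Ratio of CPM at E17.5 to CPM at E15.5 over all labelled cells on a log axis, 1 point per gene with at least 50 UMIs in each library, with the median of each list as a bar. The median is 0.59 for the 9 genes, 0.434 for other feedback inhibitors, 1.6 for FGF receptors, 1.13 for other ETS factors and 1 over all genes.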

How the data were processed

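Cells were profiled with 10x Chromium 3′ v2 chemistry. The authors deposited UMI counts for each gene and barcode, not normalized and before their cell filters, as 1 matrix per stage, and a table with the cluster of each cell. The submitters' processing notes name FastQC 0.11.7, MultiQC 0.9, Cell Ranger, Seurat 3.2.0 and the mm10 build. Cell Ranger 3.1.0 stands in the header of the matrix for E15.5, which lists 31053 genes against 27998 at E17.5, and no labelled E15.5 cell has the UMI total of the table, so a difference in counting is part of each comparison between stages. Of 5340 E15.5 cells in the table, 5 were not in the matrix. Labelled cells were kept as they were, including 93 outside the stated filters (1000 UMIs, 1000 genes, 7.5% mitochondrial, 3% Hbb and Hba UMIs).

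Levels and intervals were calculated in Python 3.11.15 (scipy 1.17.1, pandas 2.3.3, numpy 2.4.6). Intervals are exact Poisson, exact conditional (ratios) and Clopper-Pearson (shares) at 95% and cover counting error only, because 1 library per stage gives no replicate. Genes were matched by Ensembl identifier, and shares of all genes use the 12150 with at least 50 UMIs in each library. Unlabelled cells within the filters were assigned to the marker list with the most UMIs, at least 3. Scrublet scores (scanpy 1.11.5, expected rate 0.06) served only to leave out cells at or above the 94th percentile. The 9 genes and the lists were chosen with earlier results of these data known. Named are the 9 genes, the 3 most alike for each, *Fgfr1*, *Fgfr2* and *Fgfr3*, and any pathway gene enriched where at least 2 of the 9 are in both libraries, of which there were 0. Other genes named were chosen after their values were seen. Positions are from GENCODE for GRCm38, in which none of the 9 overlaps another gene on its strand. The computation was tested on simulated counts.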

Additional observations from a re-analysis of the deposited data

Results flagged for a closer look

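Signal of the 9 genes was also found in cells outside the labels, of which the comparisons above use only those with immune markers as a reference, at levels whose interval lay above that of every labelled cluster of the same library. These cells were grouped by their UMIs of marker genes, so each group is a range of a score and not a defined type.

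In cells with endothelial markers, *Dusp6* was 149 CPM (119 to 185) at E15.5, in 47 cells of which 35 had at least 3000 UMIs, and 138 CPM (123 to 154) at E17.5, in 147 cells. The highest labelled cluster had 38.5 and 14.2 CPM. At E17.5 the same cells had 29.3 CPM of *Spry1* (22.6 to 37.3) and 17.6 CPM of *Spry4* (12.5 to 24).

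In cells with pericyte markers, *Spry4* was 34.6 CPM (25.7 to 45.6) at E15.5, in 122 cells, and 26.5 CPM (20.7 to 33.4) at E17.5, in 198 cells, where the highest labelled cluster had 10.1 and 4.9 CPM. At E17.5 they also had 29.1 CPM of *Spry1* (23 to 36.3) and 46.6 CPM of *Dusp6* (38.8 to 55.6).

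In the 795 cells with immune markers at E17.5, *Dusp6* was 81.2 CPM (75.8 to 86.9), *Spred1* 54.6 CPM (50.2 to 59.3), *Etv5* 30.4 CPM (27.1 to 33.9) and *Etv1* 27.5 CPM (24.4 to 30.9). In the 906 cells with immune markers at E15.5 these genes were 28.7, 64.6, 17.4 and 7.25 CPM, none of them above the intervals of every labelled cluster. Cells with 2 or 3 immune marker UMIs, just outside and just inside the limit, numbered 36 at E17.5 and 6 at E15.5. For endothelial markers this number was 16 at E17.5 and 9 at E15.5, beside 147 and 47 cells in the group. For pericyte markers it was 22 and 24, beside 198 and 122 cells.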

How the results depend on the processing

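All alternatives compare single libraries, and the 7 stage ratios past 1.5-fold stayed below 1, though with the mean UMIs per cell *Dusp6* had 0.877, *Etv1* 0.971 and *Etv5* 0.991. With the mean UMIs per cell in place of CPM, 5 genes were enriched in a cluster in both libraries in place of 3 and 2 had the same highest cluster in place of 1, and 4 genes were then at least 1.5-fold lower at E17.5 and *Spred2*, at 1.5, higher, while *Spred1* went from 0.808 to 1.2. With a limit of 1.5-fold 6 genes were enriched in both libraries and 6 in EC4 at E17.5, and with 3-fold 1 was enriched in both. In barcode suffix 1 alone 4 genes passed the stage fold of 1.5, and 4 did with a fold of 2, in place of 7. In suffix 2 or suffix 3 alone, and after thinning each cell to 3000 UMIs, 6 genes were at least 1.5-fold lower. Suffix 2 alone gave 6 genes past 2-fold in EC4 in place of 3, and suffix 3 alone 1 gene in OG2 at E17.5 in place of 0. Shares of all genes were not counted for single suffixes or other fold limits. Counting all genes moved the share enriched in a cluster from 20.7% to 18.4%. The cause of these shifts was not tested. Counting only alternatives that changed the library in question, 75 of 84 counts stayed within 1.5 times, and 85 of 108 stage ratios stayed within their counting interval. The highest cluster stayed the same in 54 of 63 cases at E15.5 and in 50 of 72 at E17.5, and that of *Spry2* in 15 of 15. Depth limits *Etv4* and *Spry4* most. No paired analysis was possible because each stage has 1 library.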
